A study of Mus musculus with 54 samples.

Results

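Mature microRNAs are not single molecules: many are accompanied by variants whose ends lie a few bases away from the annotated ones. In the small RNA data of this series of mouse small intestine, such variants are separate rows whose name adds a signed number to that of a plain-named row, here called the parent. The number is read here as the offset in bases of the 5′ end from the annotated start, positive towards the 3′ end. The sources used here do not state that reading, so every statement on starts and seeds below is conditional on it. Of 2602 rows of the table, 1967 carry such a number and 1852 of these have a parent row. The 127 rows described here were chosen by their level: each has a parent and averages 20 RPMMM or more across the 30 labelled libraries. RPMMM is the unit of the deposited table, read here as reads per 1000000 mapped to microRNAs, and every library sums to about 1000000. Rows named for mir-375, mir-5105, mir-5109 and mir-5115 were left out, which removed 39 further rows above that mean. That these variants are abundant is therefore not a result. The least abundant rows kept were mir-208a-3p +6 at 20.5, mir-296-3p +1 at 20.4 and mir-203-3p -1 at 20.4 RPMMM, and the most abundant rows left out by the level alone were mir-5117-3p -2 at 19.3, mir-5117-3p -6 at 19.3 and mir-582-3p +1 at 19.2 RPMMM.

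The 30 libraries fall into 8 groups, all from C57BL/6J mice and all made with the TriLink CleanTag kit. Sorted cells were Cd24-Low intestinal cells (4 libraries), Lgr5-High intestinal cells (2 libraries, which another label of the same samples calls Lgr4-High), and crypt cells of low or no fluorescence from a Sox9-EGFP reporter. The latter were Sox9-EGFP Low cells of chow-fed mice (4), of germ-free mice (4) and of conventionalized mice (4), and Sox9-EGFP Negative cells of chow-fed mice (4). Dissected crypts (4) and dissected villi (4) were not sorted. The labels give no age for these mice, and only the Low and Negative libraries of chow-fed mice are tied by their labels to the same 4 animals. Both libraries of the third of those animals are in columns named for a high fat diet although their labels say chow. Low signal of the Sox9-EGFP reporter is known to enrich for crypt stem cells, which Lgr5 marks as well. A further table made by the authors compares APC mutant with control intestine (2 libraries each). The file name that the labels give for control replicate 2 contains MIN, as those of both mutant libraries do, while that of control replicate 1 does not. Whether control replicate 2 is a control could not be settled, and every APC value below rests on the authors' grouping.

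A microRNA guides an Argonaute protein to messenger RNAs chiefly through its seed, bases 2 to 8 counted from its 5′ end. Drosha cuts the primary transcript and Dicer cuts the resulting hairpin, and together these cuts set the ends of the mature strand. A start that moves by 1 base replaces the seed by the next one along, whereas a change at the 3′ end leaves it as it was. In the intestine, miR-192, miR-194 and miR-215 are known as abundant epithelial microRNAs encoded in a pair of clusters, the miR-200 family as a marker of epithelium, and the let-7 family as a group of microRNAs that rise with differentiation.

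By their suffix, 61 of the 127 variants start 1 base downstream of the parent and 30 start 1 base upstream. The others reach from -8 to +7, and 89 of the 127 lie downstream. They come from 78 parents, 47 of which have 1 variant here, 22 have 2 and 9 have 3 or more. Arms are named 5p for 73 variants, 3p for 47 and neither for 7. Matched by name, RefSeq (GRCm38.p6) gave the mature sequence of 64 parents and so of 102 variants. The other 14 parents, mir-21-5p and mir-378-3p among them, were not matched, which does not mean that RefSeq lacks them. Their variants are absent from the counts of seeds and first bases below. The sequences below are those of variants on which the results turn, printed 5′ to 3′ with the seed in capitals, and with the 3′ end of a variant drawn at its parent's 3′ end. First come +1 variants whose ratio to the parent differed under 2-fold between groups, with mir-192-5p +2, which differed 10.1-fold, shown beside the +1 form: mir-192-5p (chr19:6264857-6264877, plus strand, no host gene), mir-203-3p (chr12:112130927-112130948, plus strand, no host gene), mir-140-3p (chr8:107551288-107551308, plus strand, in an exon of the protein-coding gene Wwp2) and mir-183-5p (chr6:30169711-30169732, minus strand, no host gene).
mir-192-5p: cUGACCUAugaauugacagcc
mir-192-5p +1: uGACCUAUgaauugacagcc
mir-192-5p +2: gACCUAUGaauugacagcc
mir-203-3p: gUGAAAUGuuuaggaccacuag
mir-203-3p +1: uGAAAUGUuuaggaccacuag
mir-140-3p: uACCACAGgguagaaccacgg
mir-140-3p +1: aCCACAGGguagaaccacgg
mir-183-5p: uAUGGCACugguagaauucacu
mir-183-5p +1: aUGGCACUgguagaauucacu

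Next come examples of variants whose ratio differed 10-fold or more between groups: mir-215-5p (chr1:185313610-185313630, plus strand, in an exon of 2010103J01Rik), mir-194-1-5p (chr1:185313325-185313346, plus strand, in an intron of the same transcript), mir-7a-1-5p (chr13:58392841-58392863, minus strand, in an intron of Hnrnpk), let-7g-5p (chr9:106178846-106178867, plus strand, in an intron of Wdr82), mir-26a-1-5p (chr9:119031811-119031832, plus strand, in an intron of Ctdspl) and mir-26b-5p (chr1:74394324-74394344, plus strand, in an intron of Ctdsp1).
mir-215-5p: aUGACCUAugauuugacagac
mir-215-5p +1: uGACCUAUgauuugacagac
mir-194-1-5p: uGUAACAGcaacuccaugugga
mir-194-1-5p +1: gUAACAGCaacuccaugugga
mir-7a-1-5p: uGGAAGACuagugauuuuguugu
mir-7a-1-5p +1: gGAAGACUagugauuuuguugu
let-7g-5p: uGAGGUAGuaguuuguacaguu
let-7g-5p +1: gAGGUAGUaguuuguacaguu
mir-26a-1-5p -1: gUUCAAGUaauccaggauaggcu
mir-26b-5p: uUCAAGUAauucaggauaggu
mir-26b-5p -1: gUUCAAGUaauucaggauaggu

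Among the +1 variants with a sequence (53), 33 distinct seeds occur. The largest set is that of 9 let-7 rows, whose seed GAGGUAG becomes AGGUAGU, the seed of miR-196a-5p and miR-196b-5p. miR-192 and miR-215, which differ at 3 positions over 21 bases, share the seed UGACCUA and, moved by 1 base, share GACCUAU. In all, 15 of these 53 variants carry a seed that RefSeq lists for some other mature microRNA of the mouse. Among them, the +1 form of mir-27b-3p has the seed CACAGUG of miR-128-3p, and that of mir-93-5p has the seed AAGUGCU of miR-291a-3p, miR-294-3p, miR-295-3p, miR-302b-3p and miR-302d-3p.

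The tables give no read counts, so the depth of a library is unknown and no counting interval can be given. The smallest value above 0 in a library ran from 0.33 to 5.92 RPMMM, and was under 1 in all 6 Cd24-Low and Lgr5-High libraries. The 127 variants together held 2.09% to 5.85% of a library. A single row, mir-192-5p +1, was a large part of that. Epithelial markers (7 of 8 listed microRNAs were in the table) summed to 88082 to 617793 RPMMM per library, and 14 markers of leukocytes, mesenchyme, endothelium or blood summed to 171 to 54125 RPMMM. The latter sum was 16579 to 32359 in crypt, 7550 to 54125 in villi and at most 3921 in every sorted library. In the 6 sorted groups 0 to 9 of the 14 were at 0 in all libraries of a group, mir-142-3p and mir-223-3p among them in every sorted group other than Cd24-Low; mir-142-3p was at 0 in crypts too. Muscle and neural marker lists had no row here and were not used. In bulk libraries fewer cells of a type and less RNA per cell cannot be told apart. The table lists separate rows for hairpins of the same mature microRNA. In every library the level of 1 such row was 0.965 to 1.01 times that of the other for let-7a, mir-26a and mir-16, 1.006 to 1.226 times for let-7c and let-7f, and 0.891 to 0.976 times for mir-7a. Such a pair counts as 2 variants or parents here but is not 2 independent measurements. All p-values measure the spread between the libraries deposited, and for Cd24-Low, Lgr5-High, crypt and villi libraries nothing says that these came from separate animals.

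To compare variants across groups, the level of each was divided by that of its parent in the same library and given as a percentage of the parent. For 101 of the 127 variants the parent was above 0 in all 30 libraries. Negative replicate 3 stood apart in this: mir-200a-3p, mir-200b-3p, mir-200b-5p, mir-429-3p and mir-31-5p were listed at 0 there, although mir-31-5p was at 12297 to 13585 and mir-200a-3p at 5405 to 11016 RPMMM in the other 3 Negative libraries. Over the 8 groups, the highest and the lowest ratio of the group means of these 101 differed less than 2-fold for 25 variants, 2-fold to under 5-fold for 37, and 5-fold or more for 38, of which 29 differed 10-fold or more. The remaining variant, mir-7b-5p +1, had groups at 0 and so no fold. Variants that are a large fraction of their parent varied least. Of the 18 variants at 10% of the parent's mean level or more, 12 varied under 2-fold and 0 varied 5-fold or more, with a median of 1.66-fold. Of the 71 variants under 2% of the parent, 7 varied under 2-fold and 35 varied 5-fold or more, with a median of 5.16-fold. A variant at a lower level is also measured less precisely, and the part of precision in this relation was not tested.

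**Figure D1:**
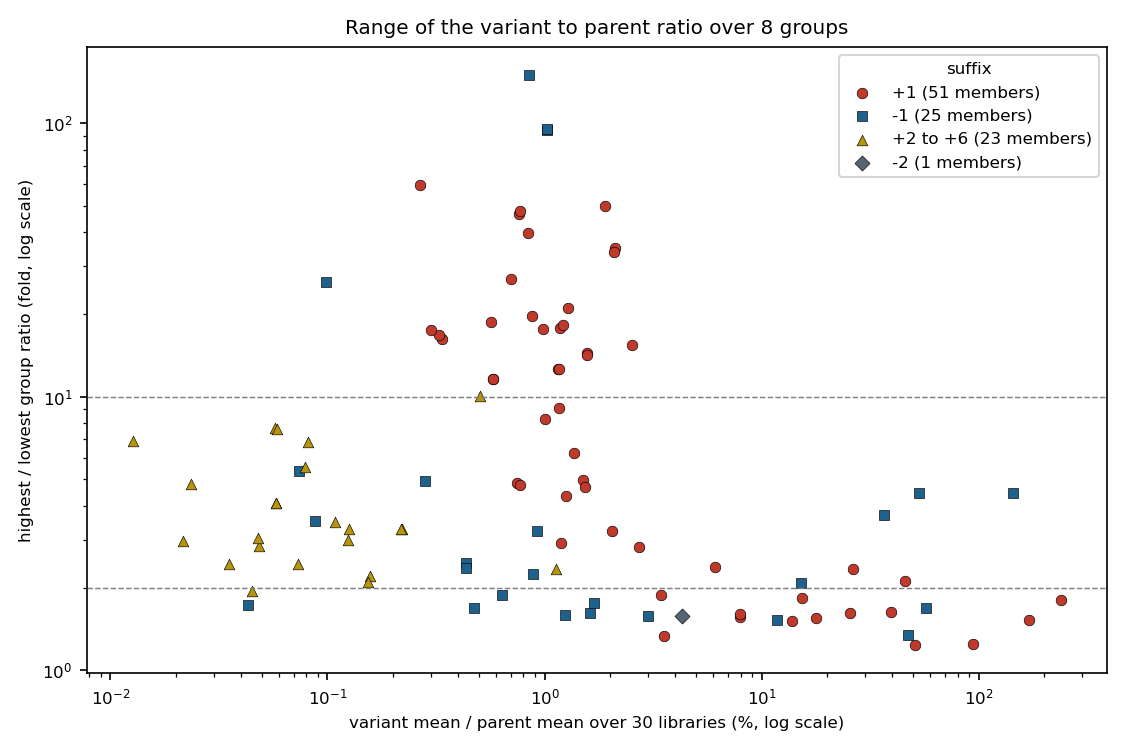
Each point is 1 of 100 variants whose parent was above 0 in every library and whose groups were all above 0. The x axis is the mean level as a percentage of the parent's (log scale), the y axis the fold between the highest and the lowest of 8 group ratios (log scale), and broken lines mark 2-fold and 10-fold. Points at 10% or more lie under 5-fold, and the 29 points above 10-fold all lie under 10%.

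mir-192-5p +1 was the most abundant variant, at a mean of 17404 RPMMM beside 113509 for its parent. Its ratio was 16.4%, 13.8%, 15.8% and 15.6% of the parent in the Cd24-Low libraries and 10.8% and 11.2% in Lgr5-High. In Sox9-EGFP Low libraries it was 13.4%, 17.7%, 12.2% and 15.8% with chow, 20.4%, 18.02%, 13.9% and 14.9% in germ-free mice, and 18.1%, 18.9%, 20.6% and 15.8% in conventionalized mice. Sox9-EGFP Negative libraries had 16.2%, 13.0%, 13.3% and 14.7%, crypts 22.2%, 19.0%, 20.1% and 18.7%, and villi 20.1%, 21.1%, 18.4% and 22.04%. The sorted groups other than Lgr5-High overlapped one another, and the 2 Lgr5-High libraries were below all others. Over the 8 groups the ratio differed 1.84-fold, while the level of the variant itself ran from 4458 RPMMM in a crypt library to 33564 RPMMM in an Lgr5-High library.

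mir-203-3p +1 was nearly as abundant as its parent in every group. miR-203 is known for its part in the differentiation of epithelia such as skin. The ratio was 93.3% ± 3.44 (SD, n = 4) in Cd24-Low, 104% ± 11.7 (SD, n = 2) in Lgr5-High, and 112% ± 15.1, 89.4% ± 17.0 and 100% ± 3.83 (SD, n = 4 each) in Low cells of chow-fed, germ-free and conventionalized mice. It was 89.0% ± 3.43 in Negative cells, 91.2% ± 10.8 in dissected crypts and 87.6% ± 5.51 in villi, likewise over 4 libraries each. The ratio of the group means differed 1.25-fold at most, and the ratio was not called in any of the 4 contrasts tested below. Its libraries did not overlap between chow-fed Low and Negative cells (log2 ratio difference 0.33, SE 0.118, limma adjusted p = 0.130). Levels, in contrast, differed widely, from 306 RPMMM in a Low library of a chow-fed mouse to 2768 RPMMM in a conventionalized one, with the parent at 246.1 and 2716 RPMMM in the same libraries.

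mir-140-3p +1 exceeded its parent in all 30 libraries. miR-140 is best known from cartilage. The variant was at 400%, 351%, 497% and 357% of the parent in Cd24-Low libraries and at 435% and 227% in the 2 Lgr5-High libraries. In the other groups the ratio was 226% ± 19.7 (Low, chow), 233% ± 30.5 (germ-free), 264% ± 62.5 (conventionalized), 219% ± 10.3 (Negative), 250% ± 33.98 (crypt) and 231% ± 12.8 (villi) of the parent, each an SD over 4 libraries. All Cd24-Low libraries were above all other libraries but 1 of Lgr5-High, at parent levels of 25.99 to 45.2 RPMMM. mir-3096-5p +1 was the other variant with a parent above 0 in all libraries that exceeded it in every group mean, at 135% to 205%.

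Further variants held a steady fraction at other levels. mir-183-5p +1 stood at 29.2% to 47.7% of the parent by group, highest in Cd24-Low (47.6% ± 1.76) and lowest in Sox9-EGFP Negative cells (29.3% ± 1.07; SD, n = 4 each), and the libraries of these 2 groups did not overlap. mir-10a-5p +1, encoded within the Hoxb cluster, stood at 46.5% to 57.7%. mir-191-5p +1 stood at 3.11% to 4.16%, and mir-378-3p +1 at 2.92% to 5.54%. mir-194-1-3p +1, on the opposite arm of the miR-194 hairpin, stood at 18.4% to 29.7%. In each of these the ratio varied under 2-fold while the parent's level varied more: mir-10a-5p +1 itself went from a group mean of 26.4 RPMMM in Negative cells to 443 RPMMM in Lgr5-High cells.

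**Figure D2:**
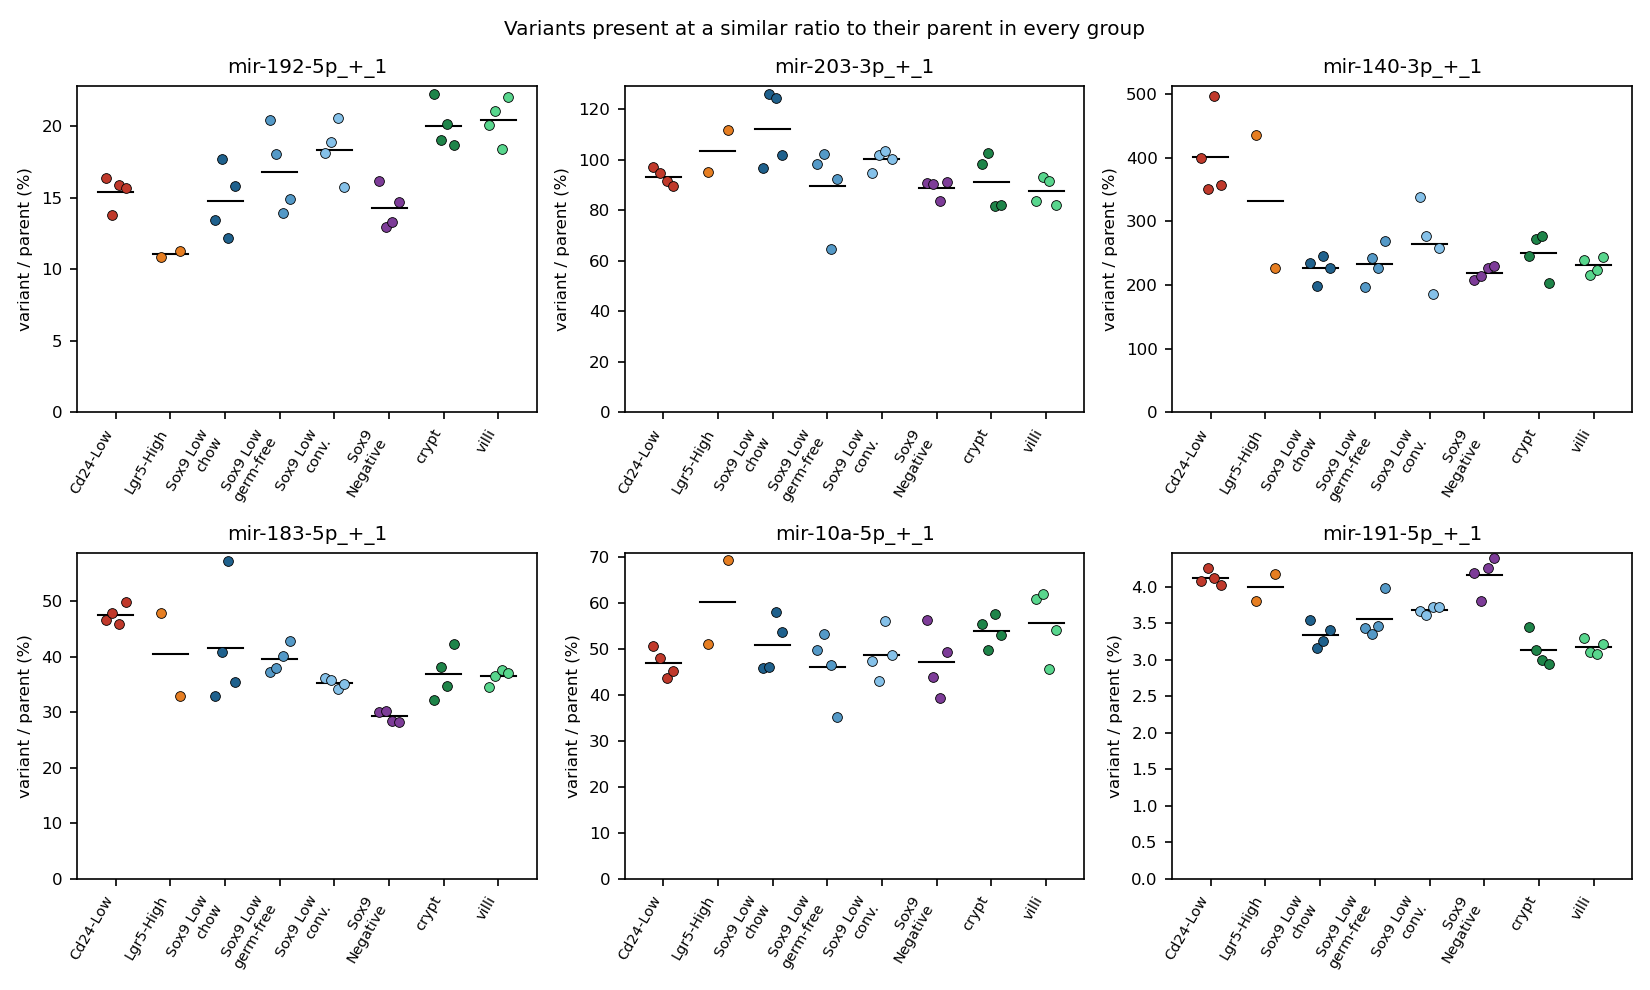
Level of 6 variants as a percentage of the parent (y axis, linear, from 0) in each of 30 libraries (points) by group (x axis), with the group mean as a bar. mir-203-3p +1 stays near 100% and mir-191-5p +1 between 2.94% and 4.40%, while mir-140-3p +1 is higher in Cd24-Low libraries.

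Of the 127 variants, 20 had a mean above the parent's, but 15 variants had a parent under 20 RPMMM, so that a ratio to it carries little. The second most abundant variant, mir-5099 -2, averaged 2427 RPMMM beside a parent at 8.13 RPMMM. In Low libraries of chow-fed mice it was at 11232, 20028, 6313 and 5088 RPMMM, against 200 and 220 in Lgr5-High and 396 to 3122 RPMMM in all others. Rows named for mir-5102 (-6, -5 and -3), mir-1843b-3p (-8) and mir-208a-3p (+6 and +7) had parents at 0 in 25, 30 and 29 libraries, so no ratio could be read. mir-208a-3p +7 was above 0 only in conventionalized (73.2, 35.3, 517 and 88.2 RPMMM) and in 2 germ-free libraries (124 and 79.1 RPMMM). miR-208a is known from heart muscle, and its plain row was at 0 in all libraries but 1. Some of these loci overlap other RNA genes: the mature stretches of mir-1839-5p and mir-1843b-3p lie in annotated scaRNAs, that of mir-5121 in the snoRNA Snord33 and that of mir-677-5p in a snoRNA within Atp5b. mir-142-5p -2, from a hairpin known for leukocytes, was above its parent in 4 of 4 crypt libraries (404% to 588%) and 4 of 4 villi libraries (472% to 697%), whereas in Negative cells the parent was at 0 throughout.

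All 29 variants with a 10-fold range had their highest ratio in Cd24-Low or Lgr5-High cells. The level that chose the variants was a mean over all groups: 19 of the 127 would fall under 20 RPMMM without 1 group, which was Cd24-Low for 6. Without all 19, 26 variants had a 10-fold range, and all 26 were highest in Cd24-Low or Lgr5-High. Groups were left out 1 at a time, so variants that reach the level only through Cd24-Low and Lgr5-High together were not removed. The 26 therefore cannot show that the choice by level had no part in the pattern. As a description of the 29 variants, chosen here for that range, their median ratio was 3.23% to 3.60% of the parent in the 6 Cd24-Low and Lgr5-High libraries. It was 0.2996% to 0.380% in Low libraries of chow-fed mice, 0.1798% to 0.431% in germ-free, 0.0496% to 0.212% in conventionalized, 0.326% to 1.18% in Negative, 0.165% to 0.263% in crypt and 0.252% to 0.270% in villi libraries. Over the 25 variants of under 2-fold range, by contrast, the median stayed between 7.10% and 10.6% in every library. Without conventionalized replicate 4, the lowest library, 29 variants reached a 10-fold range, and with medians over libraries 26 did. With the Cd24-Low and Lgr5-High groups left out, 5 variants still reached 10-fold. Column names place the Lgr5-High libraries on lane 8, give no lane for Cd24-Low and place the others on lanes 1 to 5, so that run and cell type cannot be told apart for these 2 groups.

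mir-215-5p +1 shows the pattern at the highest level. The parent, at a mean of 164144 RPMMM, was the most abundant parent of all. The variant was at 0.957%, 0.934%, 0.923% and 1.02% of it in Cd24-Low and at 1.17% and 0.976% in Lgr5-High libraries. Low libraries had 0.0604%, 0.0482%, 0.0817% and 0.0775% with chow, 0.0692%, 0.0915%, 0.0357% and 0.0800% in germ-free and 0.0783%, 0.0781%, 0.0982% and 0.0721% in conventionalized mice. Negative libraries had 0.102%, 0.0852%, 0.177% and 0.165%, crypts 0.108%, 0.127%, 0.105% and 0.0903%, and villi 0.118%, 0.122%, 0.102% and 0.120%. The 6 Cd24-Low and Lgr5-High libraries lay above all 24 others without overlap. miR-192 has the same seed, and its +1 variant showed no such rise; its +2 variant, in contrast, was at 0.892% to 1.07% in Cd24-Low, 0.727% and 0.670% in Lgr5-High and 0.0722% to 0.558% in all others.

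mir-194-1-5p +1 was at 3.42% ± 0.201 of the parent in Cd24-Low and 3.50% ± 0.140 in Lgr5-High cells. It was at 0.926% ± 0.123 (Low, chow), 0.900% ± 0.325 (germ-free), 0.428% ± 0.257 (conventionalized), 1.42% ± 0.614 (Negative), 0.195% ± 0.0525 (crypt) and 0.201% ± 0.0148 (villi; SD, n = 2 for Lgr5-High and 4 for all others). Here the dissected tissue was below all other libraries except conventionalized replicate 4, which had 0.0448%. let-7g-5p +1 gave a like pattern at higher ratios: 8.41% ± 0.169 and 7.80% ± 0.672 in Cd24-Low and Lgr5-High cells, 3.13% ± 1.30 in Negative cells, and 0.542% ± 0.0487 and 0.652% ± 0.0117 in crypts and villi (SD, n = 2 for Lgr5-High and 4 for the others).

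mir-7a-1-5p +1 had a wider range, 46.5-fold. miR-7 is known from endocrine and neural cells. The variant was at 4.79%, 4.63%, 4.44% and 4.84% of its parent in Cd24-Low and at 4.86% and 6.38% in Lgr5-High libraries. In Low libraries it was at 0.255%, 0.259%, 0.302% and 0.246% (chow), 0.122%, 0.335%, 0.276% and 0.264% (germ-free) and 0.144%, 0.124%, 0.133% and 0.0502% (conventionalized). The Cd24-Low and Lgr5-High libraries did not overlap with these. mir-21-5p +1 had 2.58% ± 0.175 (n = 4) and 2.54% ± 0.160 (n = 2; SD) there against 0.123% to 0.665% as the means of the other groups.

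The widest ranges belonged to variants that start 1 base upstream of miR-26. mir-26b-5p -1 was at 2.53%, 2.51%, 2.64% and 2.62% in Cd24-Low and at 3.22% and 3.23% in Lgr5-High libraries. In the 12 Low libraries it was at 0 in 5 and at most 0.132% in the others, and in crypts and villi it was at 0.434% to 0.613%. Its group ratios differed 149-fold and those of the -1 rows of mir-26a 94.1- and 94.9-fold, where the lowest group, conventionalized, had only 2.13 RPMMM of the mir-26b variant. The base before the annotated start differs between the miR-26a hairpins: it is G at mir-26a-1 and A at mir-26a-2. Even so the 2 rows held nearly the same level in every library, with a ratio of 0.931 to 1.07 and a median of 1.00.

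For miR-194 the rows of the 2 hairpins did differ. The mature sequences of mir-194-1-5p and mir-194-2-5p are identical, and the base upstream is G at the former and C at the latter, as shown here for the -1 forms.
mir-194-1-5p -1: gUGUAACAgcaacuccaugugga
mir-194-2-5p -1: cUGUAACAgcaacuccaugugga
mir-194-2-5p (chr19:6264658-6264679, plus strand, beside mir-192) was listed at 0.130 to 0.993 times the level of mir-194-1-5p. The +1 forms of both, which cannot be told apart by sequence, had similar ratios to their own parents, such as 3.43% and 3.48% in Cd24-Low and 0.196% and 0.195% in crypts. The -1 form was 0.613% of mir-194-2-5p and 0.167% of mir-194-1-5p in Cd24-Low, and 0.4025% and 0.0814% in villi. In each of the 8 groups the former ratio was the larger. The parents cannot be told apart by their mature sequence either. The levels of the parent rows, and so these ratios, therefore depend on how such reads were assigned, which no source used here gives.

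**Figure D3:**
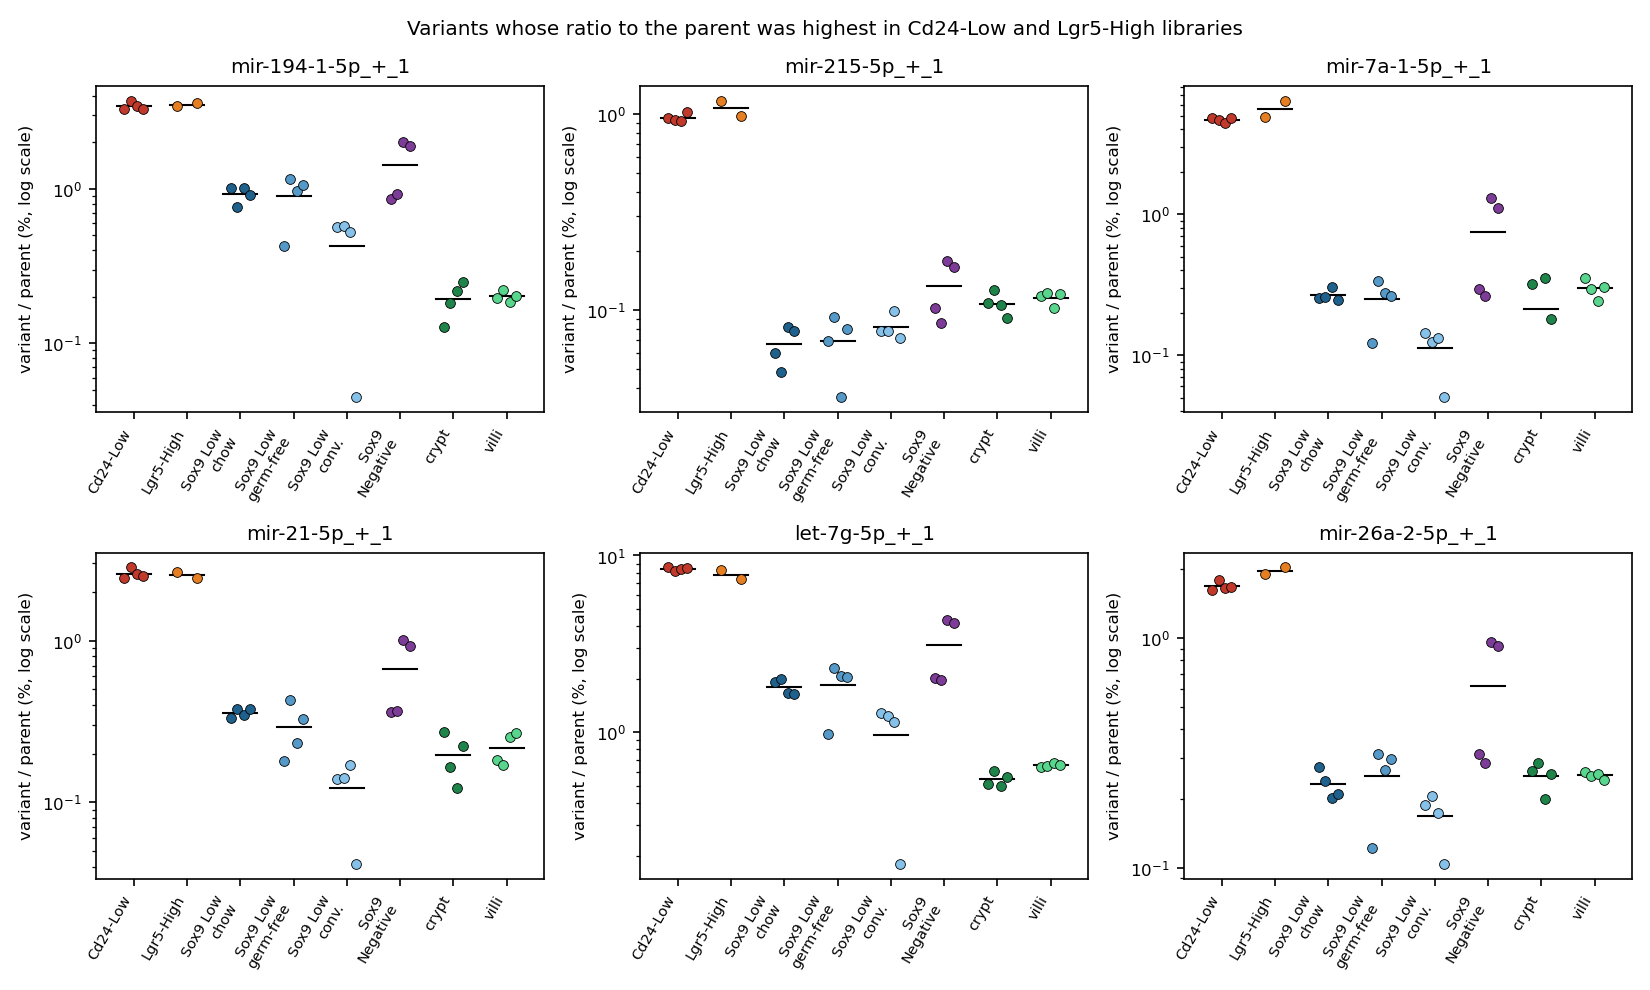
Level of 6 variants with a 10-fold range as a percentage of the parent (y axis, log scale) in each library (points) by group (x axis), with the group mean as a bar; a library at 0, as crypt replicate 2 of mir-7a-1-5p +1, is not drawn. The Cd24-Low and Lgr5-High libraries are the highest in each plot, and a pair of Negative libraries and 1 conventionalized library stand apart within their groups.

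Within groups, libraries were spread in step for these variants. The Negative libraries of lane 4 (replicates 3 and 4) were both above those of lane 5 (replicates 1 and 2) for 29 of 29 variants with a 10-fold range, and for 5 of 25 with under 2-fold range. Their medians over the 29 were 1.18% and 1.10% on lane 4 and 0.360% and 0.326% on lane 5. Conventionalized replicate 4, the only library of lane 3, was below the other 3 of its group for 27 of the 29 and for 8 of the 25. A lane number is all that the columns give, so equal numbers need not mean the same run. Whether the lane has a part in the ratios of these variants was not tested.

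The annotated first base, which took no part in choosing the variants, went along with the range. Of the 64 parents with a sequence, 38 start with U, 13 with C, 10 with A and 3 with G, whereas of 53 variants that start 1 base later 20 start with G, 18 with A, 10 with U and 5 with C. Among readable +1 variants with a sequence, 31 come from a parent that starts with U. They stood at a median of 1.19% of the parent, with a median range of 15.0-fold, and 20 of them differed 10-fold or more between groups. The 13 from a parent that starts with another base stood at a median of 7.93%, with a median range of 2.12-fold, and 1 differed 10-fold or more. mir-192-5p (C) and mir-203-3p (G) belong to the latter and mir-7a-1-5p and let-7g-5p (U) to the former, but mir-140-3p, mir-183-5p and mir-10a-5p start with U and had +1 variants at 29.2% or more of the parent in every group. These counts include rows that share a sequence and describe this set of variants without a test. First base also went along with the level relative to the parent, which itself went along with the range, and the part of each was not tested.

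Variants further downstream, here nearly all of let-7 and mir-215-5p, behaved differently from +1. Of 21 readable variants at +3 or beyond, 16 are let-7 rows and 4 are mir-215-5p rows. Some of the let-7 rows are for hairpins of the same mature microRNA, so the counts describe few families and not independent variants. Of these 21, 14 had the highest group ratio in germ-free and 4 in conventionalized Low cells, 16 had the lowest in Cd24-Low or Lgr5-High, and 0 had the highest there. Among 52 readable variants at +1, in contrast, 43 had the highest ratio in Cd24-Low or Lgr5-High. Of these 52, 4 would fall under a mean of 20 RPMMM without Cd24-Low or without Lgr5-High, and they were not removed. Of the 21 further downstream, 4 would do so without 1 group, which was germ-free or conventionalized for 0. The part of the choice by level in this contrast was not tested. In the let-7 family, the median ratio over 10 rows at +1 was 3.24% to 3.54% in Cd24-Low and Lgr5-High libraries and 0.190% to 1.61% in all others. Over 16 let-7 rows at +3 to +6 it was 0.0287% to 0.0658% in Cd24-Low and Lgr5-High, 0.0916% to 0.145% in germ-free, 0.0597% to 0.0940% in conventionalized and 0.0750% to 0.101% in crypt and villi libraries. Low libraries of chow-fed mice, at 0.0314% to 0.0718%, were as low as Cd24-Low and Lgr5-High, and Negative libraries were at 0.0682% to 0.121%. These far variants are rare, and the germ-free libraries lay above those of Cd24-Low, Lgr5-High and chow-fed Low cells without overlap. The 4 rows of mir-215-5p at +3 to +6 summed to 0.0543% to 0.112% of the parent in Cd24-Low and Lgr5-High libraries and to 0.126% to 0.206% in germ-free and conventionalized ones, whereas at +1 the former were the higher. The other groups overlapped the Cd24-Low and Lgr5-High range: Negative at 0.0763% to 0.0869%, villi at 0.0831% to 0.120%, crypts at 0.0851% to 0.131% and Low libraries of chow-fed mice at 0.0572% to 0.157%.

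**Figure D4:**
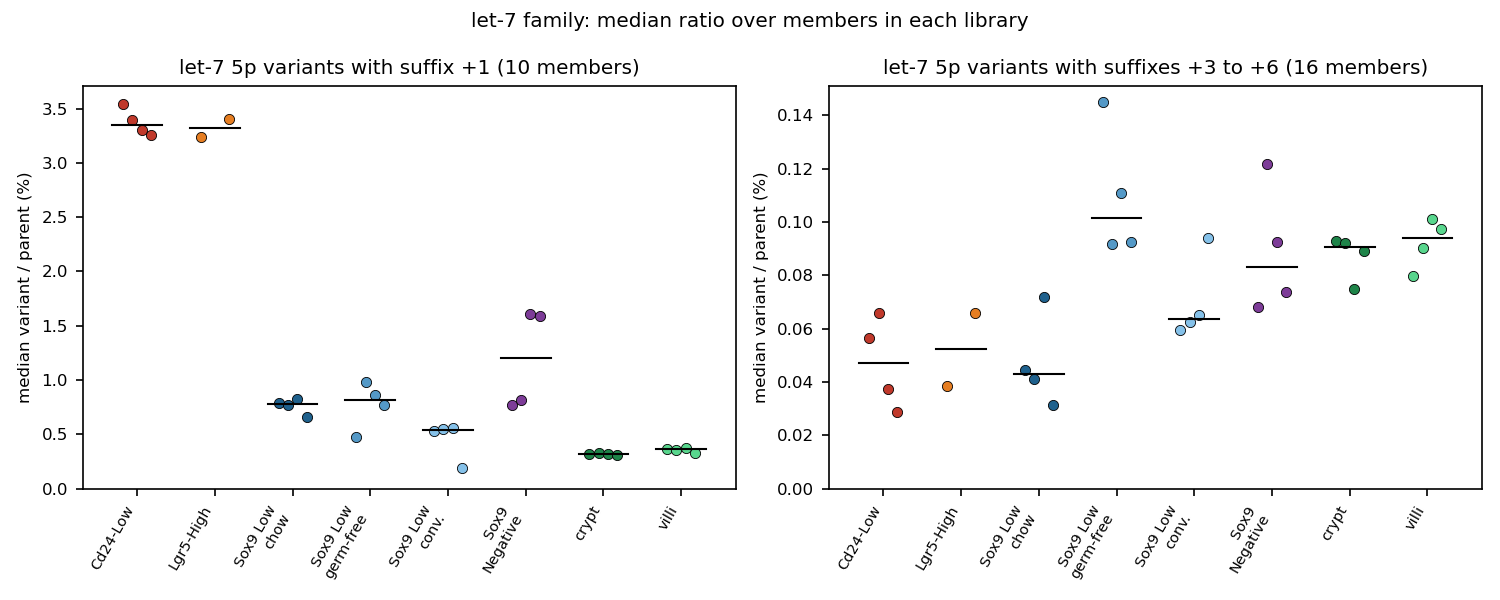
Median ratio of let-7 variants to their parents (y axis, percent, from 0) in each library (points) by group (x axis), with the group median as a bar: 10 rows at +1 on the left, 16 rows at +3 to +6 on the right. On the left the 6 Cd24-Low and Lgr5-High libraries lie at 3.24% or more and all others at 1.61% or less, and on the right those 6 lie at 0.0658% or less, with chow-fed Low libraries at a similar level (0.0314% to 0.0718%).

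In another set of variants dissected tissue stood apart from all sorted cells. miR-25 and miR-93 are processed from 1 transcript within Mcm7, a gene of DNA replication, and their +1 variants were at a low ratio in crypts and villi. mir-25-3p +1 was at 0.134%, 0.187%, 0.318% and 0.0757% in crypts and at 0.197%, 0.218%, 0.185% and 0.231% in villi. In sorted cells it was at 0.746% to 2.81%. mir-93-5p +1 was at 0.173% to 0.542% in crypts and villi and at 1.15% to 2.81% in sorted cells, and mir-151-3p +1 at 0.394% to 0.721% and 1.66% to 3.15%. No library of dissected tissue reached any of the sorted libraries in these 3 variants. The level of the mir-25-3p variant in dissected tissue was a mean of 7.73 RPMMM in crypts and 5.96 RPMMM in villi, so its ratios there are of low precision, and crypts and villi also held the highest sums of markers of other cell types, whose part in the ratio was not tested.

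Next, 4 contrasts were then tested, with limma on the log2 ratio of variant to parent (1 RPMMM added to each) over 324 variant and parent pairs with a mean variant level of at least 5 RPMMM, called at an adjusted p under 0.05. In Sox9-EGFP Low against Negative cells of chow-fed mice 6.79% of all pairs were called (1.23% higher and 5.56% lower in Low), and 4 of the 127 variants (1 higher, 3 lower). The only one of these with variant and parent above 0 in all 8 libraries was mir-1839-5p +1. It was at 19.2%, 19.0%, 21.1% and 23.8% of the parent in Low and at 39.9%, 36.1%, 43.3% and 38.9% in Negative libraries, without overlap. The log2 difference of the ratios was -0.92 (SE 0.140, limma adjusted p = 0.00563), with an adjusted p of 0.0517 with the animal as a replicate block. The variant's own level was 20.6 to 60.5 RPMMM in Low and 36.6 to 44.4 RPMMM in Negative cells (log2 level difference -0.08, SE 0.339, limma adjusted p = 0.867), and the parent's was 98.03 to 254 and 94.3 to 123 RPMMM (0.84, SE 0.322, limma adjusted p = 0.0546). mir-1839 overlaps a scaRNA gene, as given above.

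The other 3 calls rest on values at or near 0. mir-7b-5p +1 was at 0 in all Negative libraries, where its parent was at 19.9 to 41.9 RPMMM against 6632 to 14251 RPMMM in Low cells, so its log2 difference of -4.49 (SE 0.385, limma adjusted p = 0.000326) is set by the 1 RPMMM added to a variant of 0. Parent and variant of mir-296-3p +1 were at 0 in all Negative libraries (-3.25, SE 0.336, limma adjusted p = 0.00064), and the parent of mir-1843b-3p -8 was at 0 in all libraries (5.05, SE 0.715, limma adjusted p = 0.00453, and 0.0517 with the animal as a replicate block). Groups did not overlap for 36 of the 127 variants, beside 21.9% of all pairs, and the median log2 difference was -0.35 over the variants and -0.34 over all pairs. All Low libraries were on lane 1 and the Negative libraries on lanes 4 and 5, so that lane and cell type cannot be told apart. Set against Low libraries of lanes 4 and 5, from germ-free and conventionalized mice, 11 variants were called. Without Negative replicate 3, which lists the miR-200 parents named above at 0, 4 were called. Without Low replicate 3, 8 were called, and without both libraries of the animal whose columns name a high fat diet, 7. The share of all pairs called is not given for these changed fits.

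Crypts and villi, all on lane 4, gave 0 calls among the 127 variants, with 3.7% of all pairs called (3.4% higher and 0.309% lower in crypts). In limma 22 of the 127 variants had an unadjusted p under 0.05, and no share of all pairs at that p is given to set beside them. Groups did not overlap for 12 of the 127, beside 11.4% of all pairs. The variant nearest to a call was let-7c-1-5p +1, at a log2 difference of -0.29 (SE 0.0620, limma adjusted p = 0.0514). Without crypt replicate 2 or crypt replicate 4, 2 variants were called, and 1 without villi replicate 3, with no share of all pairs given for these fits.

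Lgr5-High against Cd24-Low cells, with 2 libraries against 4, gave 8 calls among the 127 variants (3 higher, 5 lower in Lgr5-High), beside 6.48% of all pairs (2.78% higher, 3.7% lower). mir-192-5p +1 was lower in Lgr5-High, with the values given above (log2 difference -0.48, SE 0.0755, limma adjusted p = 0.0284). Its +2 variant fell with it, at 0.727% and 0.670% against 0.892% to 1.07% (-0.51, SE 0.0880, limma adjusted p = 0.0350). mir-141-3p -1, of the miR-200 family, was at 2.19% and 2.37% against 3.00% to 3.52% (-0.55, SE 0.0937, limma adjusted p = 0.0324), and mir-194-2-5p -1 at 0.197% and 0.312% against 0.575% to 0.662% (-1.17, SE 0.225, limma adjusted p = 0.0427). mir-26b-5p -1 was higher, with the values given above (0.33, SE 0.0613, limma adjusted p = 0.0416). The other 3 calls, mir-7b-5p +1, mir-5099 -2 and mir-5099 +3, rest on a variant or a parent at 0 in both Lgr5-High libraries. Calls in this contrast depended on single libraries: 0 variants were called without Cd24-Low replicate 3 or 4, 3 and 5 without Cd24-Low replicate 1 or 2, and 35 and 20 without Lgr5-High replicate 1 or 2, where the lone library is assumed to vary like the others. With the replicate number as a block 0 were called. For the fits with changed libraries or a block, the share of all pairs called is not given. Groups did not overlap for 42 of the 127 variants, beside 33.6% of all pairs.

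In Low cells of germ-free against conventionalized mice, which asks what a microbiota changes, 3 of the 127 variants were called (2 higher, 1 lower in germ-free), beside 2.47% of all pairs (0.926% higher, 1.54% lower). mir-5117-5p -1 was at 13.7%, 19.3%, 9.21% and 15.5% in germ-free and at 34.01%, 36.9%, 37.2% and 33.3% in conventionalized libraries, without overlap (log2 difference -1.32, SE 0.212, limma adjusted p = 0.0338). Low cells of chow-fed mice were at 50.3% to 56.0%. mir-200b-3p +1 was at 7.39%, 8.60%, 10.6% and 8.56% in germ-free and at 4.87%, 5.29%, 6.09% and 5.79% in conventionalized libraries (0.67, SE 0.132, limma adjusted p = 0.0410). Here the parent was lower in germ-free mice (log2 level difference -0.76, SE 0.190, limma adjusted p = 0.0168), while the variant's level differed by -0.09 (SE 0.174, limma adjusted p = 0.705). Within lane 1, which holds 1 library of each group, mir-5117-5p -1 was at 13.7% against 37.2% and mir-200b-3p +1 at 7.39% against 6.09%.

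The third call, mir-1843b-3p -8, has a parent at 0 in all libraries, and its own level was 76.4 to 180.8 RPMMM in germ-free and 9.50 to 35.02 RPMMM in conventionalized libraries. Each of the 3 calls was lost when certain libraries were left out. The adjusted p of mir-200b-3p +1 was 0.0690 to 0.151 without any 1 germ-free library or without conventionalized replicate 1 or 2, and that of mir-5117-5p -1 was 0.0690 to 0.112 without germ-free replicate 1 or 4 or conventionalized replicate 1 or 2. For mir-1843b-3p -8 it was 0.0791 to 0.145 without any 1 germ-free library or without conventionalized replicate 1 or 2. Groups did not overlap for 30 of the 127 variants, beside 16.4% of all pairs. The median log2 difference was 0.41 over the variants and 0.20 over all pairs. Conventionalized replicate 4 was below the rest of its group for 27 of the 29 variants of 10-fold range, and its part in these medians was not tested.

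**Figure D5:**
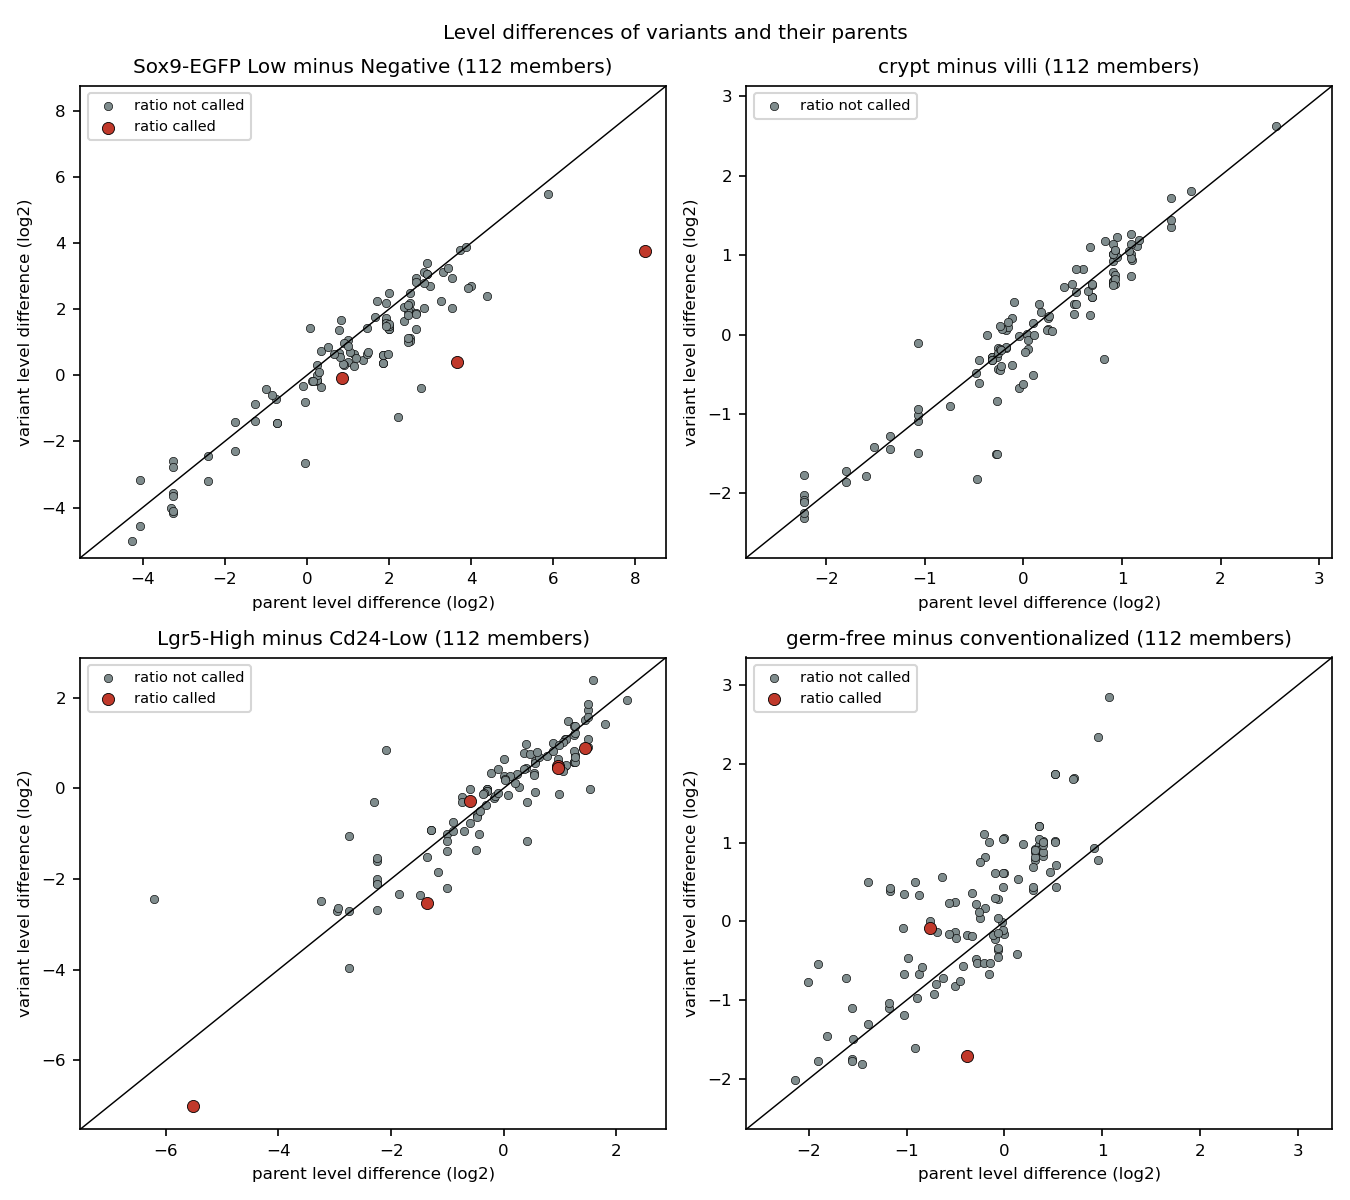
Log2 level difference of each variant (y axis) against that of its parent (x axis) in 4 contrasts, for 112 variants whose parent was also fitted; the line marks equal differences and larger red points mark a called ratio. Points rise along the line in each contrast, with most scatter for germ-free against conventionalized mice, but are not centred on it in all. Over the 127 variants the median log2 ratio difference was -0.35 in Low against Negative cells and 0.41 in germ-free against conventionalized mice. It was -0.0199 in crypts against villi and -0.0115 in Lgr5-High against Cd24-Low cells.

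Variant and parent levels never moved in opposite directions where both were called. Of the 127 variants the level was called in 73 (54 higher, 19 lower) in Low against Negative cells, beside 58.5% of the 369 rows fitted (46.1% higher and 12.5% lower). It was called in 58 (40 higher, 18 lower) in crypts against villi, beside 40.1% (29.3% and 10.8%), in 39 (16 higher, 23 lower) in Lgr5-High against Cd24-Low cells, beside 32% (12.5% and 19.5%), and in 39 (17 higher, 22 lower) in germ-free against conventionalized mice, beside 40.4% (13.3% and 27.1%). In the last contrast the count was 18 to 23 without conventionalized replicate 1, 2 or 3 or germ-free replicate 2, 3 or 4, and in Lgr5-High against Cd24-Low it was 21 without Cd24-Low replicate 1 and 20 without Lgr5-High replicate 2. Where the parent was fitted as well (112 variants), variant and parent were both called in the same direction for 63, 47, 34 and 19 variants in these contrasts, and in opposite directions for 0 in each. A variant was called and its parent was not for 4, 5, 2 and 14, and the parent was called and the variant was not for 24, 7, 26 and 20. In germ-free against conventionalized mice, calls on 1 side thus outnumbered calls on both. Levels are parts of a library of fixed sum, so a difference in a few abundant rows moves all others. In Low against Negative cells the median log2 level difference was 0.87 over the variants and 0.98 over all rows fitted. The epithelial markers summed to 189300 to 257851 RPMMM in these Low libraries and to 547482 to 617793 RPMMM in Negative ones, and their part in the calls was not tested.

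The miR-194 and miR-215 variants are examples of large level differences at high levels. In Low against Negative cells mir-194-1-5p +1 was at a log2 level difference of -4.55 (SE 0.366) beside -4.06 (SE 0.188) for its parent, and mir-215-5p +1 of -4.17 (SE 0.285) beside -3.27 (SE 0.151), all called in limma. The rows of mir-194-2-5p, of the same mature sequence, differed less: -3.19 (SE 0.544) for +1 and -2.40 (SE 0.367) for the parent. The size of the miR-194 difference thus depends on the row read. In crypts against villi, mir-192-5p +1 was at -1.09 (SE 0.159, limma adjusted p = 0.0017) and its parent at -1.06 (SE 0.202, limma adjusted p = 0.0047), and mir-203-3p +1 at -1.01 beside -1.06 for the parent. In germ-free against conventionalized Low cells mir-203-3p +1 was at -1.74 (SE 0.347, limma adjusted p = 0.0090) beside -1.56 for its parent, and mir-378-3p +1 at -1.10 beside -1.18. In Low against Negative cells mir-10a-5p +1 was at 3.80 (SE 0.3202) beside 3.72 (SE 0.312) for the parent.

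In APC mutant and control intestine, the authors' deposited table holds 112 of the 127 variants and calls 21 of them (11 higher, 10 lower, adjusted p under 0.05). That is 18.8% of these variants, beside 20.3% of all rows of the authors' deposited table. In the authors' deposited table, mir-192-5p +1 had a log2 fold change of -1.83 (SE 0.437) and its parent of -2.01, and group means that put the variant at 15.6% of the parent in mutant and 13.8% in control libraries. By the authors' deposited table, mir-194-1-5p +1 fell by 4.42 and its parent by 4.31 on the log2 scale, at 0.247% and 0.266% of the parent. For mir-194-2-5p, of the same mature sequence, the authors' deposited table gives log2 fold changes of -2.94 for +1 and -2.86 for the parent. mir-10a-5p +1 had a log2 fold change of 3.45 and its parent of 3.37 in the authors' deposited table, at 49.4% and 46.7% of the parent. mir-200c-3p -1 was a variant that went the other way from its parent there: the authors' deposited table gives 0.56 for it and -0.69 for the parent, which put it at 3.80% of the parent in mutant and 1.59% in control libraries. Further ratios differed in the authors' deposited table, in either direction. Its group means put mir-101b-3p -1 at 91.6% of the parent in mutant and 31.4% in control libraries. They put mir-425-3p -1 at 79.5% in mutant and 172% in control libraries. The authors' deposited table has no value per library, so the ratios carry no error.

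The messenger RNA data of Low cells bear on the enzymes that set microRNA ends. Of 33 genes of microRNA processing and decay, 0 were called in germ-free against conventionalized mice by limma, beside 2.24% of 20214 genes. In the same fit 9 of the 33 had an unadjusted p under 0.05. No share of all genes at that unadjusted p is given here, so the 9 cannot be read as more than expected. Drosha, which makes the first cut, averaged 391.6 ± 119 normalized counts in germ-free mice, against 491 ± 78.7 (SD, n = 4 each; log2 difference -0.36, SE 0.274, limma adjusted p = 0.439). Dicer1, which makes the second, had 233 ± 45.8 and 276 ± 41.8 (-0.25, SE 0.276, limma adjusted p = 0.594), and Ago2, which holds the mature strand, 391.96 ± 23.96 and 431 ± 47.9 (-0.13, SE 0.230, limma adjusted p = 0.738). Parn and Eri1, nucleases that trim RNA 3′ ends, were at -0.87 (SE 0.246, limma adjusted p = 0.0952) and -0.90 (SE 0.262, limma adjusted p = 0.101). With all 4 mRNA groups in the fit, 7 of the 33 genes were called, all lower in germ-free mice, beside 8.27% of all genes (4.12% lower).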

How the data were processed

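Small RNA and mRNA tables of mouse small intestine were used as deposited. The small RNA table holds RPM values (read here as reads per 1000000 mapped to microRNAs) computed by the authors; 4 columns that match no sample were not used. The mRNA table holds a normalized signal, counts scaled by the authors, and 381 rows without a gene name were dropped. The authors' comparison of APC mutant and control libraries, per the file headers, gives mean levels as signal, a log2 fold change and adjusted p-values as deposited. The authors' processing notes, as submitted, name mm10, STAR, Salmon, DESeq2 and Cell Ranger. No source used here gives the small RNA aligner or the meaning of the suffix.

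Ratios were log2((variant + 1)/(parent + 1)) of RPMMM, fitted in R 4.3.3 with limma 3.58.1 (lmFit, eBayes with the variance following the variant's mean level) for the 2 groups compared, over 324 pairs with a mean variant level of at least 5 RPMMM. Benjamini-Hochberg adjusted p-values cover all pairs. Levels were fitted as log2(RPMMM + 1) over 369 rows with a mean of at least 20, and mRNA as log2(normalized count + 1). Differences on the level scales understate changes of low rows. On the ratio scale the added 1 can also create or enlarge a difference where a variant or parent is at or near 0. Depth is unknown. The scripts were tested on simulated data. Low and Negative libraries come from the same 4 animals by their labels; the correlation of their deviations was between -0.0129 and 0.0546, and with the animal as a replicate block 3 variants were called.

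Named with values were the 8 most abundant variants, up to 4 called variants in each direction of each contrast with groups that did not overlap, variants above their parent, and examples of each pattern chosen after their values were seen. Members and lists were chosen with earlier results of these data known. Alternatives were other pseudocounts, filters, scalings, fits and left-out libraries. Sequences are from RefSeq.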

Additional observations from a re-analysis of the deposited data

Results flagged for a closer look

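Dixon's test was applied to 139 groups of 4 libraries in 24 named variants, and in 12 of these groups 1 library lay far from the others. Chance gives about 1 in 20 only for independent, normal values without ties. These groups share libraries, some hold ties at 0, and some variants were named because their groups did not overlap. The 12 thus cannot be set against that rate. mir-203-3p +1 was at 83.9% in Negative replicate 3, beside 90.2% to 91.1% in the others. mir-378-3p +1 was at 4.84% in Low (chow) replicate 3, beside 3.63% to 3.71%, and at 5.17% in germ-free replicate 3, beside 3.98% to 4.16%. mir-192-5p +2 was at 0.0722% in conventionalized replicate 4, beside 0.295% to 0.341%. mir-92a-1-3p +1 was at 1.80% in germ-free replicate 3, beside 1.27% to 1.34%, and at 1.16% in villi replicate 3, beside 1.27% to 1.29%.

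mir-296-3p +1 was at 16.3% in Low (chow) replicate 1 and at 0 in the other 3 libraries. mir-26b-5p -1 was at 0 in conventionalized replicate 3, beside 0.0249% to 0.0299%. mir-5117-5p -1 was at 38.1% in villi replicate 1, beside 30.1% to 30.9%. mir-3096-5p +1 was at 189% in Low (chow) replicate 2, beside 159% to 164%, and at 248% in Negative replicate 3, beside 179% to 191%. mir-425-3p -1 was at 1602% in germ-free replicate 3, beside 250% to 414%. Animal 3, whose columns are named for a high fat diet, gave the flagged library in 3 of these cases.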

How the results depend on the processing

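Numbers of the 127 variants with a called ratio moved with the settings. Shares of all pairs or rows called are given for the main fits only. Counts under other settings, here and above, thus show how calls depend on the setting and not whether these variants differ from other pairs. Low against Negative cells (4 called) gave 32 with a pseudocount of 5 RPMMM, 7 with no filter on level, 28 with all 8 groups in the fit, 2 where the parent and 1 where variant and parent were above 0 in every library compared, 11 with Low libraries of lanes 4 and 5, 7 without both libraries of animal 3, and 4 to 8 with 1 library left out (8 without Low replicate 3). Crypts against villi (0) gave 3 with a pseudocount of 5 RPMMM, 3 with a mean of at least 20 RPMMM, 2 with median-of-ratios scaling, 1 with the replicate block, and 0 to 2 with 1 library left out. Lgr5-High against Cd24-Low (8) gave 13 with a pseudocount of 0.1 RPMMM, 13 with a mean of at least 20 RPMMM, 5 with no variance trend, 0 with the replicate block, 2 with variant and parent above 0, and 0 to 35 with 1 library left out. Germ-free against conventionalized (3) gave 1 with a pseudocount of 0.1 RPMMM, 1 with no variance trend, 0 with each variant as a share of all rows of its parent's name, 0 with the replicate block, 1 where the parent was above 0, 0 without lanes 2 and 3, and 0 to 4 with 1 library left out. Called levels numbered 39 and, with 1 library left out, 20 to 35 in Lgr5-High against Cd24-Low, and in germ-free against conventionalized mice from 39 to 20 with no filter, 23 with the replicate block and 18 to 53 with 1 library left out.

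The mRNA list went from 0 to 7 with all 4 groups in the fit, and the 29 variants of 10-fold range became 5 without the Cd24-Low and Lgr5-High groups. Reversed were mir-1843b-3p -8 in Low against Negative (-0.44 as a share), mir-7b-5p +1 (0.66) and mir-5099 -2 (-0.22) in Lgr5-High against Cd24-Low with a pseudocount of 5 RPMMM; all 3 have a variant or parent at 0. The cause of the other changes was not tested. Replicate numbers of crypts and villi, Lgr5-High and Cd24-Low, and germ-free and conventionalized libraries are only numbers: same-numbered libraries had correlations from -0.539 to 0.262. The parent above 0 in every library, variant and parent above 0, the lanes 2 and 3 left out and the alternatives to the 10-fold range were chosen after seeing the data, and rows with a variant at 0 throughout were dropped in the fits with no filter.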
